A study of Mus musculus with 12 samples.

Results

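Thrombospondin 1 (TSP-1) is a secreted glycoprotein that restrains blood vessel growth, and mice without it were compared with wild type (WT) mice in a model of inflammation-driven colon cancer. The genes described here are 10 genes of the response to oxidants and metals, found as the probes whose only gene symbol is one of the 10, each with 1 probe among the 28853 probes of the array, and are 10 of the 19938 genes so named. They are 6 genes of the oxidative stress response (Slc7a11, Gclc, Gclm, Nqo1, Hmox1 and Txnrd1) and 4 metal binding genes (Mt1, Mt2, Mt3 and Mt4). Slc7a11 was chosen by its difference between genotypes within AOM/DSS, so that difference is given as a description, with no test. Mt4 was selected on its AOM/DSS arrays lying above the 12-array median, which is likewise only described. Its genotype tests below use the same AOM/DSS values, so they are not independent of that choice.

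Colon RNA was measured on 12 arrays, 3 mice in each of 4 groups, all on the C57BL/6 strain. WT and TSP-1-/- mice of the AOM/DSS groups were 7 weeks old at the start and received 10 mg/kg azoxymethane (AOM), a carcinogen that acts on the colon, and 4 cycles of 7 days of 1.5% dextran sulfate sodium (DSS), which injures the colonic epithelium. They were killed 15 weeks after AOM, and the labels and the methods differ on when AOM was given relative to the first DSS cycle. WT and TSP-1-/- mice of the water groups drank water only, and whether they belonged to the same experiment is not known, because their labels carry the protocol of another DSS study. The TSP-1-/- allele is a targeted mutation that leaves the gene in place but gives no protein. A probe for Thbs1, the gene of TSP-1, therefore does not check the labels: its log2 values were 0.27, -0.16 and -0.07 in WT AOM/DSS and 0.81, 0.85 and 0.93 in TSP-1-/- AOM/DSS (adjusted p = 0.0730, limma).

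Cells import cystine in exchange for glutamate through the transporter of Slc7a11, reduce it to cysteine and join it with glutamate, in the rate-limiting step catalysed by the Gclc and Gclm subunits, to make glutathione. The transcription factor NRF2 (Nfe2l2), held back by Keap1, is known to drive all 6 oxidative stress genes, and ATF4 also drives Slc7a11 when amino acids are short. Metallothioneins are small cysteine-rich proteins that bind zinc and copper. Mt1 and Mt2 are made in most tissues and are induced by metals through MTF1, Mt3 is known from the brain, and Mt4 from stratified squamous epithelium. The colon lining is a simple columnar epithelium. The paper's methods name normal and diseased tissue of the colon, and a figure legend calls the AOM/DSS samples tumors. It describes merged tumors in WT and separate polyps in TSP-1-/- colons, and the share of tumor on each array is not known. Each array measured tissue of mixed cells, so fewer cells of a type and less RNA per cell cannot be told apart.

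The promoters of Slc7a11, Mt1, Mt2 and Mt4 are shown because Slc7a11 and Mt4 had the largest differences between the genotypes, and because Mt1 and Mt2, near neighbours of Mt4 on chromosome 8, lay on the other side of 0. Of the 10 members, 8 matched a window of 300 bases in the RefSeq promoter table (mouse GRCm38.p6, 250 bases before to 50 after a gene start), and Gclc and Hmox1 did not. Each is printed 5′ to 3′ on the gene's strand, with matches in capitals on either strand to the metal response element cores TGCACNC and TGCGCNC, the antioxidant response element core TGACNNNGC and the amino acid response element core TGATGCAA. The windows are chr3:50443564-50443863 on the minus strand for Slc7a11, and on the plus strand chr8:94178839-94179138 for Mt1, chr8:94172368-94172667 for Mt2 and chr8:94136954-94137253 for Mt4.
Slc7a11: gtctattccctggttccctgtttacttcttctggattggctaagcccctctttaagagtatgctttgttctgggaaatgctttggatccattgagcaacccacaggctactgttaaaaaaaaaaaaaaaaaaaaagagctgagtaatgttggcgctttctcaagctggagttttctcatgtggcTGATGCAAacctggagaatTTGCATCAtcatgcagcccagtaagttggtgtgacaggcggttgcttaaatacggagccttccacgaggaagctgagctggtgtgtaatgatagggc
Mt1: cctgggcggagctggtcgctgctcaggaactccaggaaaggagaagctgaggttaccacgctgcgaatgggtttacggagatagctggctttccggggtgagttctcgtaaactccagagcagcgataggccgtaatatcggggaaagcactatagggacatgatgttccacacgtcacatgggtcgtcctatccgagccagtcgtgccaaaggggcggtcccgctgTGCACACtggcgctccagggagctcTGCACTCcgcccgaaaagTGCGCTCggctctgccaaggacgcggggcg
Mt2: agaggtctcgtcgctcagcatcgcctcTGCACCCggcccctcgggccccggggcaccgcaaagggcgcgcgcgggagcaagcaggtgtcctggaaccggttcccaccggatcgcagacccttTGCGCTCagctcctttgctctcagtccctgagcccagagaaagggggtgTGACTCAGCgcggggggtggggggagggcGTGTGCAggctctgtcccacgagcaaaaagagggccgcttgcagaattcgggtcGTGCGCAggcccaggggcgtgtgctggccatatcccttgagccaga
Mt4: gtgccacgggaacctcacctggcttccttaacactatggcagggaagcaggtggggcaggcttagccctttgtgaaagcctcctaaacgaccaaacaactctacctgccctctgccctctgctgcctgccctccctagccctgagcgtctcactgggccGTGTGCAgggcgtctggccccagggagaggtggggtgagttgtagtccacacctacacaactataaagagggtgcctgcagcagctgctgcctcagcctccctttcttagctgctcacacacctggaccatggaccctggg

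The Slc7a11 window held 2 matches to TGATGCAA, 1 on each strand, and none to the other cores. Of all 32851 promoter windows, 0.895% held TGATGCAA and 2 windows held it 2 or more times. Mt1 held 3 metal response cores, Mt2 held 4 and Mt4 and Mt3 held 1 each. At least 1 such core stood in 25.7% of all windows and 3 or more in 1.97%. The antioxidant core, present in 12.4% of windows, matched once in Mt2, once in Gclm and in 1 of 3 Txnrd1 windows, and not in the Nqo1 window. The Gclm match overlaps 1 of the 3 metal response cores of that window. These matches are letters in short windows and say nothing of binding in these colons.

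Among the AOM/DSS mice the members split. Slc7a11 and Mt4 were about 8 times as high in TSP-1-/- as in WT samples, while Nqo1 and Mt1 were lower. Values are log2 units relative to a baseline per probe, which on the AOM/DSS arrays is the median of all 12 arrays, so a member's level cannot be set against another's. A gene was called different at an adjusted p under 0.05 (limma over all 28853 probes, Benjamini-Hochberg) and at least a 2-fold difference. By that rule 1.73% of all probes were called higher and 1.05% lower in TSP-1-/- AOM/DSS mice. Of the 9 members other than Slc7a11, 1 was called higher, 2 were called lower (Nqo1 and Mt1) and 6 were not called. The 1 called higher was Mt4, which was selected on these same AOM/DSS arrays. The median difference of the 9 members was -0.57, beside 0.13 over all probes. Of all probes 32.3% had an unadjusted p under 0.05 in this comparison (limma), 62.8% were above 0 and 37.2% below.

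**Figure D1:**
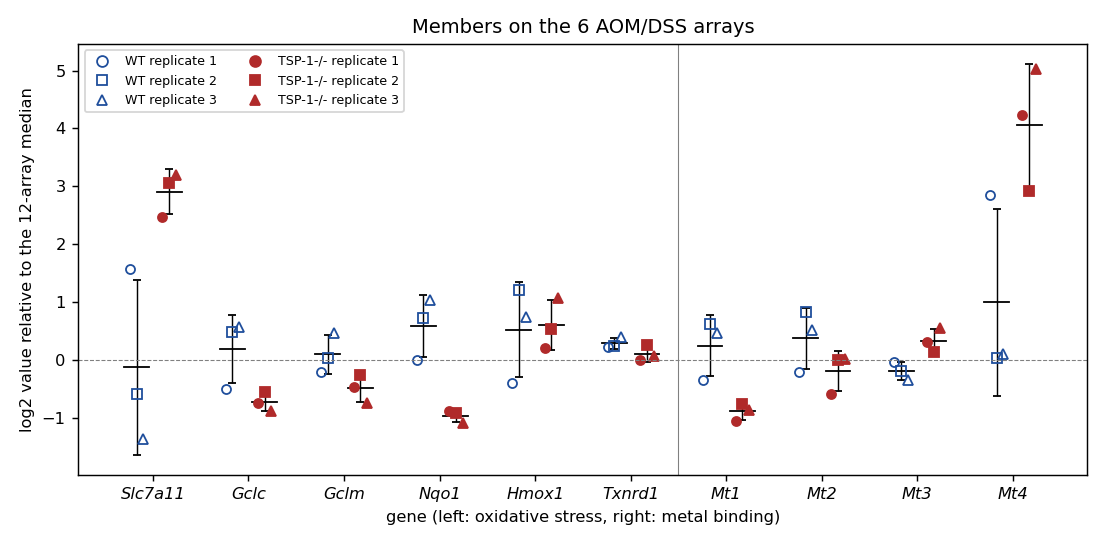
Log2 values of the 10 members (y axis, with 0 at the 12-array median) for the AOM/DSS mice, with open symbols for WT, filled symbols for TSP-1-/-, a symbol shape per replicate, and bars for the mean and SD (n = 3). Slc7a11 and Mt4 are high on all 3 TSP-1-/- arrays and on WT replicate 1 alone among WT arrays, while Nqo1 and Mt1 lie near -1 on every TSP-1-/- array.

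Slc7a11, the cystine transporter, measured 1.56, -0.59 and -1.37 on the WT AOM/DSS arrays and 2.46, 3.05 and 3.20 on the TSP-1-/- AOM/DSS arrays. The groups did not overlap, and WT replicate 1 lay nearer the TSP-1-/- arrays than the other WT arrays. The means were -0.13 ± 1.52 in WT and 2.90 ± 0.39 in TSP-1-/- (SD, n = 3). The difference was 3.04 ± 0.71 (SE), or 8.20-fold, and it was 3.88 without WT replicate 1. With the arrays quantile normalized again it was 1.70.

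The enzymes downstream of cystine import lay on the other side of 0. Gclc, the catalytic subunit of glutamate-cysteine ligase, measured -0.50, 0.47 and 0.56 in WT and -0.74, -0.56 and -0.89 in TSP-1-/- AOM/DSS mice. Its difference of -0.91 ± 0.23 passed the p threshold (adjusted p = 0.0386, limma) but stayed under 2-fold, at 1.88-fold. The pass was lost in limma with 9 of the 12 single arrays left out, at most to an adjusted p of 0.140 (without WT replicate 3), and after quantile normalization over all 12 arrays (adjusted p = 0.0709). WT replicate 1 again lay next to the TSP-1-/- arrays, 0.06 above the highest of them. Without that array the Gclc difference was -1.25 and was called lower (adjusted p = 0.000791, limma). The number of all probes called also rose without it, from 802 to 1341.

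Gclm, the regulatory subunit of the same ligase, measured -0.21, 0.03 and 0.46 in WT and -0.47, -0.26 and -0.75 in TSP-1-/- AOM/DSS mice. The groups were separate by 0.05, and the difference of -0.58 ± 0.19 did not pass (adjusted p = 0.0646, limma).

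Nqo1, a quinone reductase that is widely used as a readout of NRF2, had the lowest adjusted p of the members tested. It measured 0.00, 0.72 and 1.04 in WT and -0.89, -0.92 and -1.10 in TSP-1-/- AOM/DSS mice. The 3 TSP-1-/- arrays lay close together, all at least 0.89 below the lowest WT array. The difference was -1.56 ± 0.23, 2.94-fold lower (adjusted p = 0.00987, limma). It stayed called whichever of the 12 arrays was left out, with adjusted p from 0.000419 to 0.0433 (limma). It was not called in limma when only the 2 AOM/DSS groups were fitted (adjusted p = 0.108) or with unmoderated variances (0.0524).

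Hmox1, which breaks down heme, measured -0.39, 1.20 and 0.74 in WT and 0.20, 0.53 and 1.07 in TSP-1-/- AOM/DSS mice. The groups overlapped almost wholly, and the difference was 0.08 ± 0.42 (adjusted p = 0.904, limma), with the opposite sign, at -0.45, after quantile normalization was applied again. Txnrd1, which keeps thioredoxin reduced, varied least of the members on the AOM/DSS arrays: 0.22, 0.24 and 0.39 in WT against -0.01, 0.25 and 0.06 in TSP-1-/-. Its difference was -0.18 ± 0.12 (adjusted p = 0.282, limma), and the groups overlapped.

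**Figure D2:**
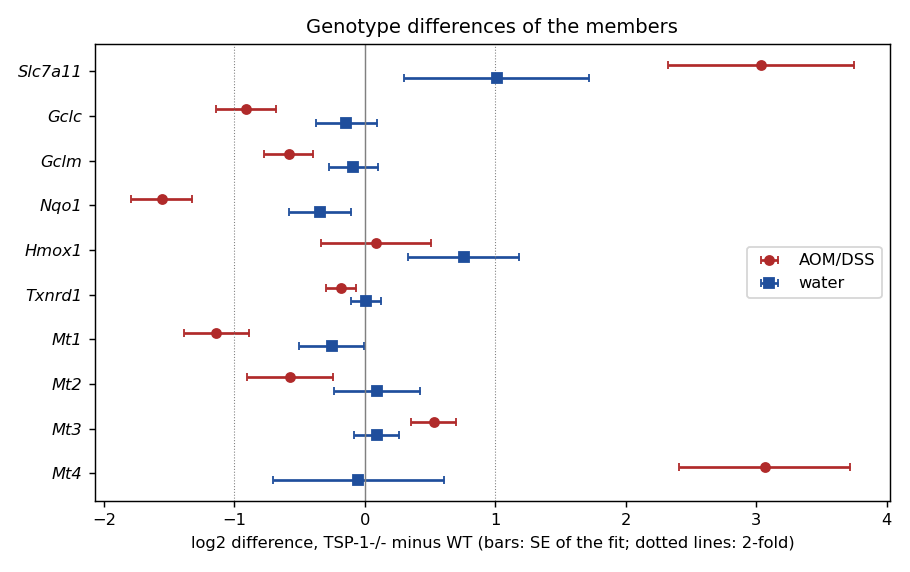
Log2 difference TSP-1-/- minus WT (x axis) of each member within the AOM/DSS arrays (circles) and within the water arrays (squares), with bars for the SE of the limma fit (n = 3 arrays a group) and dotted lines at 2-fold. Within AOM/DSS, Slc7a11 and Mt4 lie near 3, Nqo1 at -1.56 and Mt1 at -1.14, while the water differences lie between -0.34 and 1.01.

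The 4 metallothioneins lie side by side on chromosome 8, in the order Mt4, Mt3, Mt2 and Mt1 (RefSeq, GRCm38.p6), and their genotype differences ran from 3.06 at Mt4 down through 0.53 at Mt3 and -0.57 at Mt2 to -1.14 at Mt1. That order of differences follows the order of the genes, but Mt3 and Mt2 did not pass the p threshold. Whether 4 genes fall in such an order more often than by chance was not tested.

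Mt1 measured -0.36, 0.62 and 0.47 on the WT and -1.06, -0.76 and -0.86 on the TSP-1-/- AOM/DSS arrays. The groups did not overlap, and its difference was -1.14 ± 0.25, 2.20-fold lower (adjusted p = 0.0275, limma). The call was lost, with the difference still negative, without any 1 of WT replicate 2 (adjusted p = 0.0577), WT replicate 3 (0.104), TSP-1-/- replicate 1 (0.0547) and TSP-1-/- replicate 3 (0.0704) in limma. It was also lost after quantile normalization over all 12 arrays (adjusted p = 0.0709), with only the 2 groups fitted (0.131) and with unmoderated variances (0.0724) in limma. Mt2, a close relative of Mt1, measured -0.21, 0.82 and 0.51 in WT and -0.60, -0.01 and 0.01 in TSP-1-/-. Its groups overlapped through WT replicate 1, and the difference of -0.57 ± 0.33 did not pass (adjusted p = 0.244, limma). How far the probes of these similar genes share signal was not tested.

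Mt3 measured -0.04, -0.20 and -0.35 in WT and 0.32, 0.13 and 0.54 in TSP-1-/- AOM/DSS mice. The groups were 0.17 apart, and the difference of 0.53 ± 0.17 did not pass (adjusted p = 0.0714, limma).

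Mt4 measured 2.86, 0.03 and 0.10 on the WT and 4.24, 2.91 and 5.02 on the TSP-1-/- AOM/DSS arrays. WT replicate 1 reached within 0.06 of the lowest TSP-1-/- array, and the other WT arrays sat at the 12-array median. The means were 0.99 ± 1.61 in WT and 4.06 ± 1.06 in TSP-1-/- (SD, n = 3). The difference was 3.06 ± 0.66, 8.36-fold higher (adjusted p = 0.0266, limma). That SE is pooled with the water arrays, where the SD of Mt4 was 0.01 in WT and 0.12 in TSP-1-/-. It therefore understates the spread among the AOM/DSS arrays. The call was lost without WT replicate 2 (adjusted p = 0.0564), WT replicate 3 (0.104) or TSP-1-/- replicate 3 (0.0801) in limma. It was also lost after quantile normalization over all 12 arrays (1.13, adjusted p = 0.331) or within each set of 6 (1.51, adjusted p = 0.227), with only the 2 groups fitted (adjusted p = 0.139) and with unmoderated variances (0.0767) in limma.

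**Figure D3:**
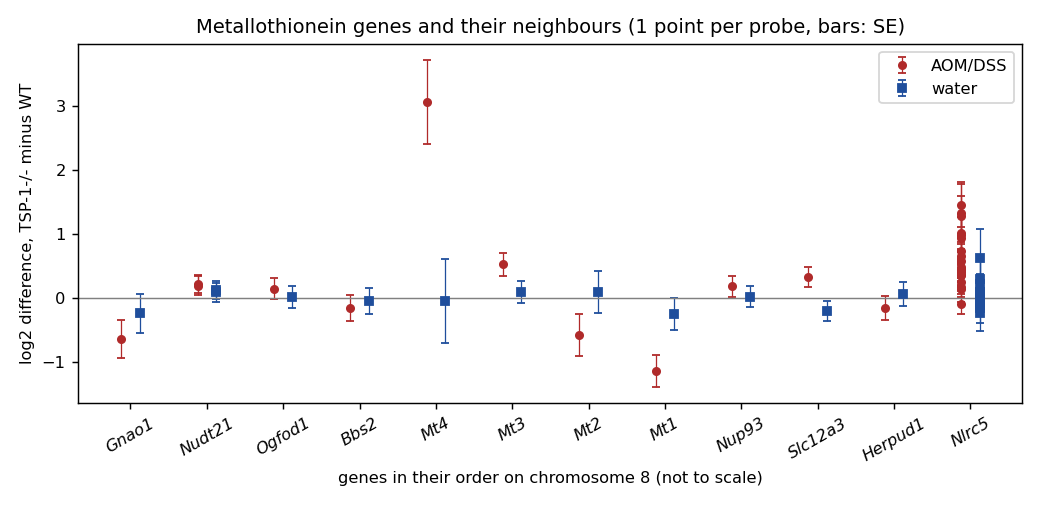
Log2 difference TSP-1-/- minus WT (y axis) for the metallothionein genes and the 4 measured genes on each side, in chromosome order and not to scale, with 1 point per probe, circles for AOM/DSS, squares for water, and bars for the SE of the limma fit (n = 3 arrays a group). Within AOM/DSS the points step down from 3.06 at Mt4 to -1.14 at Mt1, and the water points of the 4 genes lie between -0.25 and 0.09.

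Of the 8 genes around the cluster, 7 had no probe called. Within AOM/DSS, Bbs2 beside Mt4 differed by -0.16 (adjusted p = 0.609, limma) and Nup93 beside Mt1 by 0.18 (adjusted p = 0.442, limma). Gnao1, the farthest on the Mt4 side, differed by -0.64 (adjusted p = 0.166, limma), more than Mt2 or Mt3. Nlrc5, the farthest on the Mt1 side, had 19 probes from -0.09 to 1.46, of which 2 were called higher, at 1.29 and 1.46. These genes were taken by position alone.

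Separation of the genotypes was common among the AOM/DSS arrays. Slc7a11, Mt3 and Mt4 were higher and Gclc, Gclm, Nqo1 and Mt1 lower on every TSP-1-/- array than on every WT array. Over all probes 20.2% were separate in the first direction and 10.7% in the second.

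Against the 12-array median, all 6 AOM/DSS arrays lay above 0 for Mt4, 5 for Hmox1 and Txnrd1, 4 for Slc7a11, 3 for Nqo1, Mt2 and Mt3, and 2 for Gclc, Gclm and Mt1. Over all probes, 2.02% had all 6 arrays above and 4.02% had none above. For Slc7a11 the array counts were 3 of 3 in TSP-1-/- and 1 of 3 in WT. The water arrays stand on another baseline, so no fold between AOM/DSS and water is given.

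Within water no member was called, and over all 28815 probes with a water value 0 were called (0%, limma), with 288 at an unadjusted p under 0.05. Slc7a11 measured -2.27, -2.22 and -1.69 in WT and 0.34, -1.13 and -2.37 in TSP-1-/- water mice. The TSP-1-/- arrays held both the highest and the lowest value, and the difference of 1.01 ± 0.71 had an unadjusted p of 0.181 in limma. Hmox1 measured -1.43, -1.88 and -0.74 in WT and 0.05, -0.96 and -0.87 in TSP-1-/-, a difference of 0.76 ± 0.42 (unadjusted p = 0.0998, limma). For both genes TSP-1-/- water replicate 1 was the highest of the 6 arrays.

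Nqo1 measured 0.64, 0.76 and 1.25 in WT and 0.53, 0.47 and 0.62 in TSP-1-/- water mice. It was the only member whose water groups did not overlap, by 0.02, with a difference of -0.34 ± 0.23 (unadjusted p = 0.169, limma). Over all probes 2.88% lay wholly lower in TSP-1-/- water mice and 2.29% wholly higher. Mt4 stayed close to its baseline in water, at -0.02, 0.01 and 0.00 in WT and -0.19, 0.04 and -0.01 in TSP-1-/-. Its difference was -0.05 ± 0.66, where the SE comes from the spread pooled with the AOM/DSS arrays and is far above the spread of these 6 values. The other 6 members (Gclc, Gclm, Txnrd1, Mt1, Mt2 and Mt3) differed by -0.25 to 0.09, with overlapping groups.

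**Figure D4:**
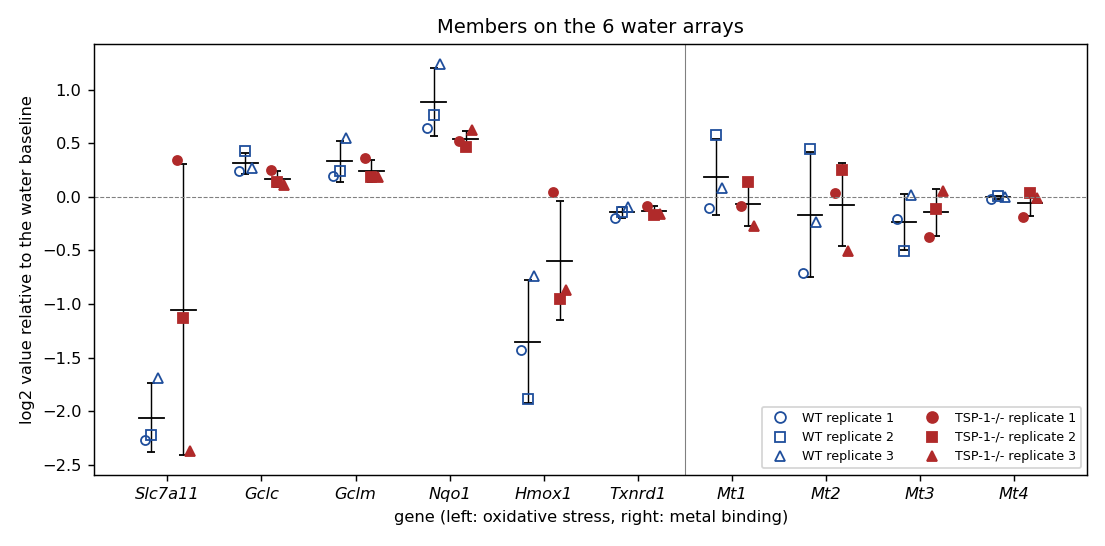
Log2 values of the 10 members (y axis, relative to the baseline of the water arrays) on the 6 water arrays, with open symbols for WT, filled symbols for TSP-1-/-, a symbol shape per replicate, and bars for the mean and SD (n = 3). Slc7a11 and Hmox1 spread most, with TSP-1-/- replicate 1 on top at 0.34 and 0.05, and the 6 Mt4 values lie between -0.19 and 0.04.

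A constant offset of the baseline cancels in the difference between the 2 genotype differences, AOM/DSS minus water. By limma on all 12 arrays 0.00694% of probes (2 of 28815) were called there, 4431 had an unadjusted p under 0.05, and none of the members was called. The values were 3.12 for Mt4 (unadjusted p = 0.00578, adjusted p = 0.245, limma), -1.21 for Nqo1 (0.00333 and 0.235), -0.88 for Mt1 (0.0276 and 0.284) and -0.77 for Gclc (0.0367 and 0.303). For Slc7a11 the value was 2.03 ± 1.00, given without a test. The tests of Mt4 here use the AOM/DSS values on which it was selected, so they are not independent of that choice. For Mt4, Nqo1, Mt1 and Gclc the unadjusted p was under 0.05 in limma, as for 15.4% of all probes. The larger genotype difference of these 4 genes under AOM/DSS than in water did not pass the adjustment over all probes. Without WT AOM/DSS replicate 1, Mt4 (4.05, adjusted p = 0.00979), Nqo1 (-1.51, adjusted p = 0.0212) and Gclc (-1.11, adjusted p = 0.0214) were called in limma. With other single arrays left out, the adjusted p rose up to 0.455 for Mt4 and Nqo1 and 0.529 for Gclc in limma. The number of all probes called also changed with the array left out, and its range is given further below.

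The related pathways were described with 8 gene lists, chosen with results of these data known. Of their genes 8 were called within AOM/DSS in limma, 2 after quantile normalization over all 12 arrays and 0 with only the 2 groups fitted. In the first of these fits 1.73% of all probes were called higher and 1.05% lower, with a median difference of 0.13. Of 13 measured genes of cystine import and glutathione synthesis within AOM/DSS, 0 were called higher and 2 lower, with a median of -0.44. The 2 were Slc3a1, a subunit of an epithelial cystine transporter (-2.18 ± 0.38, adjusted p = 0.0162, limma), and Cth, which makes cysteine from cystathionine (-1.33 ± 0.29, adjusted p = 0.0279, limma). Slc3a2, the chain that pairs with the Slc7a11 protein, was named after its values were seen: it measured -0.05, -0.26 and -0.05 in WT and 0.37, 0.55 and 0.59 in TSP-1-/-. Its groups did not overlap, and its 0.62 difference passed the p threshold (adjusted p = 0.0443, limma) at 1.54-fold, under the 2-fold minimum. Gss, which completes glutathione and was named in the same way, differed by -0.85 (adjusted p = 0.0419, limma), also under 2-fold.

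Of 24 glutathione peroxidases and transferases 0 were called higher and 2 lower, Gstm3 (-1.01 and -1.29 on its 2 probes) and Mgst1 (-1.04), both of which join glutathione to reactive molecules, and the list's median was -0.58. None of 16 genes of the thioredoxin, peroxiredoxin, catalase and superoxide dismutase list was called by limma (median -0.37). None of 5 genes listed as NADPH-forming enzymes was called either (median -0.60). At an unadjusted p under 0.05 there were 10 of 16 and 3 of 5, beside 32.3% of all probes. NADPH is the electron donor that recycles glutathione and thioredoxin. All 5 genes of the NADPH list were below 0, and 13 of the 16 genes, beside 37.2% of all probes. Taldo1 (-0.60) and Tkt (-0.62) of the NADPH list are pentose phosphate enzymes that form no NADPH themselves. Its NADPH-forming enzymes differed by -0.13 (Idh1), -0.29 (Pgd) and -0.85 and -0.83 (the 2 probes of Me1). These 5 genes were named after their values were seen.

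**Figure D5:**
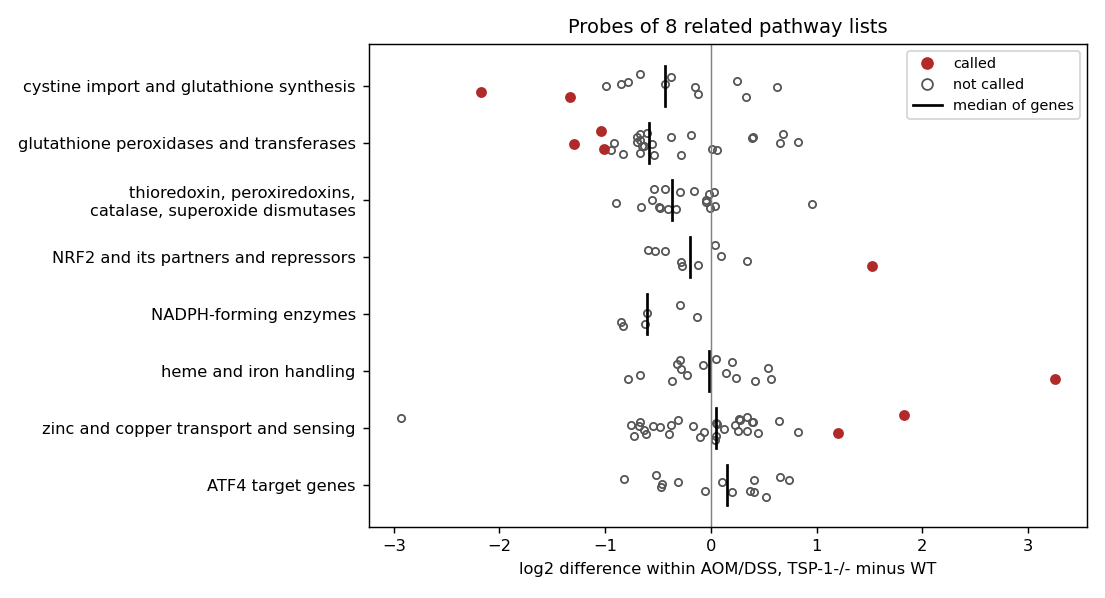
Log2 difference TSP-1-/- minus WT within AOM/DSS (x axis) of each probe in 8 pathway lists (rows), with filled points for probes called different and vertical bars for the median over the genes of a list. The medians run from -0.60 (row NADPH-forming enzymes, which also holds Taldo1 and Tkt) to 0.15 (row ATF4 target genes, which also holds Atf4). The called probes lie below 0 in the 2 glutathione lists and above 0 in the NRF2, iron and zinc lists.

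Among the regulators within AOM/DSS, Nfe2l2 (NRF2 itself) differed by -0.43 (adjusted p = 0.107, limma) and Keap1, its inhibitor, by -0.53 (adjusted p = 0.0467, under 2-fold). Bach1, which represses Hmox1, differed by -0.27 (adjusted p = 0.318, limma). Bach2, a lymphocyte factor of the same family, was the 1 gene of 10 in the NRF2 list to be called, at 1.52 (adjusted p = 0.0276, limma), and the list's median was -0.20. Atf4 differed by -0.46 (adjusted p = 0.0519, limma). None of the 14 genes listed as ATF4 targets, which include Atf4 itself, was called, and their median was 0.15. Of the 14, 7 had an unadjusted p under 0.05 by limma, Atf4 among them, beside 32.3% of all probes.

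Of 32 genes of zinc and copper handling, 2 were called higher and 0 lower, with a median of 0.05. They were Slc39a2, a zinc importer (1.20 ± 0.18, adjusted p = 0.00987, limma), and Cp, the copper-carrying plasma protein ceruloplasmin (1.83 ± 0.46, adjusted p = 0.0380, limma). Mtf1, the metal sensor that drives Mt1 and Mt2, differed by 0.40 (adjusted p = 0.186, limma). Slc30a1, a zinc exporter that MTF1 also drives, was named after its values were seen and differed by -0.68 (adjusted p = 0.0342, limma), under 2-fold. Of 16 genes of heme and iron handling, Lcn2, which captures bacterial iron carriers, was called higher (3.25 ± 0.89, adjusted p = 0.0463, limma), 0 were called lower and the median was -0.01. No gene of the 8 lists was called within water by limma, where 3 had an unadjusted p under 0.05, 1 of heme and iron handling and 2 of zinc and copper handling.

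Markers of other cells moved on the same arrays, where 1.73% of all probes were called higher and 1.05% lower. Of 12 neutrophil markers within AOM/DSS, 3 were called higher (Cxcr2, Csf3r and Mmp9, at 4.58, 2.56 and 1.90) and 0 lower, with a median of 1.64. The list's median was 0.17, -0.43 and -0.46 on the WT and 0.74, 1.17 and 1.36 on the TSP-1-/- AOM/DSS arrays, the same order of arrays as for Slc7a11. Of 12 macrophage markers 1 was called higher (Csf1r, 1.03) and the median was 0.92. In water the neutrophil list was highest on TSP-1-/- replicate 1, at 0.23 against -2.16 to -0.93 on the other 5 arrays, and this is the array highest for Slc7a11 and Hmox1. That array was also the highest in water for the macrophage list (-0.28) and for the pancreatic acinar list (1.14). TSP-1-/- water replicate 3, the lowest for Slc7a11 at -2.37, had a neutrophil median of -1.09, above every WT water array. The part of these cells in the Slc7a11 values was not tested.

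The colonocyte list had 1 of 10 genes called lower (Car1, a carbonic anhydrase, -1.09), and its median difference was -0.57. Its array medians were 0.15, -0.05 and 0.25 in WT and 0.03, -0.13 and -1.14 in TSP-1-/- AOM/DSS mice. The low value belonged to TSP-1-/- replicate 3, where Nqo1 was at -1.10, against -0.89 and -0.92 on the other TSP-1-/- arrays. The adipocyte list had 2 of 7 genes called lower (Cidec, -2.23, and Retn, -2.04), with array medians of -1.03, 0.92 and 1.40 in WT and -1.74, -1.38 and -0.94 in TSP-1-/-. WT replicate 1 sat with the TSP-1-/- arrays there, as it leaned for Gclc and Mt1, and the part of fat in those values was not tested.

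Of 20 squamous epithelium markers, 2 were called higher and 0 lower within AOM/DSS, with a median of 0.25. Above 0 were 16 of the 20, beside 62.8% of all probes, and 9 had an unadjusted p under 0.05 in limma, beside 32.3%. Krt14, a keratin of basal squamous cells, measured 0.10, -0.09 and -0.02 in WT and 2.44, 1.10 and 1.55 in TSP-1-/- (1.70 ± 0.26, adjusted p = 0.00987, limma), and Krt4 differed by 1.01. Krt5, the partner of Krt14, differed by 0.09 (adjusted p = 0.683), Krt1 by 0.17 (0.444) and Krt10 by -0.22 (0.433) in limma. Krt13 differed by 0.75 (adjusted p = 0.0299) and Sprr3 by 0.77 (0.0347) in limma, both under 2-fold, Krt15 by 0.84 (0.0560), and Sprr1a lowest of the list by -1.40 (0.0533). These 7 were named after their values were seen. On WT replicate 1, where Mt4 stood at 2.86, Krt14 was at 0.10 and the list's median at -0.25. The 9 pancreatic acinar markers had a median of 5.65 on TSP-1-/- AOM/DSS replicate 3, where Mt4 was highest, and -0.18 to 0.01 on the other AOM/DSS arrays. Without both that array and WT replicate 1 the differences were 3.51 for Mt4, -1.78 for Nqo1, -1.45 for Mt1 and 3.73 for Slc7a11. None of 6 glia and neuron markers (median -0.12) or 8 smooth muscle markers (median -0.44) was called by limma. In each list 1 gene had an unadjusted p under 0.05 in limma, beside 32.3% of all probes.

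The genes most like Slc7a11 over the 6 AOM/DSS arrays, by the mean absolute difference after each probe was centred, were Erich3 (0.26), Dkk2 (0.27), a secreted Wnt modulator, Mmp13 (0.31), a collagenase, Lyz1 (0.32), the Paneth cell lysozyme, and Anxa8 (0.35). For Mt4 they were Lef1 (0.39), a Wnt pathway transcription factor, Khdc1a (0.39), Pnliprp2 (0.39), a pancreatic lipase relative, Cxcl5 (0.44), a neutrophil-attracting chemokine, and Lyz1 (0.46). Lyz1 stood in both sets. It measured 3.03, -0.29 and 0.12 in WT and 3.57, 4.13 and 4.63 in TSP-1-/- AOM/DSS mice, high on WT replicate 1 as were both members. These genes were chosen for the likeness itself, and 6 arrays are few.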

How the data were processed

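The authors deposited log2 values, made from Affymetrix MoGene 1.0 ST arrays with PLIER16 and quantile normalization and set relative to the median of all 12 samples. That baseline was checked on 377 genes of the study's own list: 376 matched exactly 1 probe on both AOM/DSS means within 0.0001 log2 units, and 0 matched on the water means. AOM/DSS and water arrays were therefore never compared by level. On 38 probes there are no water values. Of the 28853 probes, 21789 have 1 gene symbol, 1621 several and 5443 none, and genes were named only from probes with 1. Per the labels, arrays of a group are biological replicates. The number of arrays limits the precision.

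Genotypes were compared with limma 3.58.1 in R 4.3.3 on all 12 arrays, with 1 mean per group, moderated variances and Benjamini-Hochberg adjustment over all probes. The members and lists were chosen with earlier results of these data known. By rule the named genes are all members, 5 regulators (Nfe2l2, Keap1, Bach1, Mtf1 and Atf4), up to 3 genes called each way per list, Thbs1 and the 5 genes nearest in pattern to Slc7a11 and to Mt4. Slc3a2, Gss, Slc30a1, Krt1, Krt5, Krt10, Krt13, Krt15, Sprr1a, Sprr3 and the genes beside the metallothioneins are named outside that rule. Also outside it are Idh1, Me1, Pgd, Taldo1 and Tkt of the NADPH list. Alternatives were other normalizations, centring, fewer arrays, unmoderated variances, array weights, a filter on variability and a replicate block. Leaving out both arrays that stand apart was chosen after seeing the data. Figures were drawn with matplotlib 3.10.9.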

Additional observations from a re-analysis of the deposited data

How the results depend on the processing

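Within AOM/DSS the directions of the 9 members other than Hmox1 were the same under every alternative run. Hmox1 turned to -0.45 (quantile normalization over all 12 arrays), -0.62 (within each set), -0.19 (array quality weights) and -0.61 (without both WT replicate 1 and TSP-1-/- replicate 3), and ran from -0.37 to 0.43 with 1 array left out. Members called higher, 1 of 9 apart from Slc7a11, were 0 under both quantile normalizations, with only the 2 groups of the comparison and with unmoderated variances, and 0 to 1 with 1 array left out. Members called lower, 2 of 9, were 1 with quantile normalization over all 12 arrays, 0 with only the 2 groups or unmoderated variances, and 1 to 3 with 1 array left out. With only the 2 groups or unmoderated variances Nqo1 (-1.56) was not called either. All probes called, 802, were 183 (quantile over 12 arrays), 6 (only the 2 groups), 47 (unmoderated) and 381 (array weights), and 104 to 1402 with 1 array left out (104 without WT replicate 3, 1402 without TSP-1-/- replicate 2). The calls split into 500 higher and 302 lower as deposited, 396 and 414 with arrays centred, 78 and 105 with quantile normalization over all arrays, and 259 and 391 within each set, as the median of all probes moved from 0.13 to 0.05, 0.02 and 0.02. Genes called in the 8 pathway lists, 8 in all, were 1 to 15 with 1 array left out (1 without WT replicate 3, 15 without WT replicate 1). The cause of these changes was not tested.

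Within water 0 members were called under every alternative run, and 0 to 1 probes with 1 array left out. The sign turned only with 1 array left out: Gclm ran from -0.16 to 0.022, Txnrd1 from -0.017 to 0.033, Mt2 from -0.18 to 0.40, Mt3 from -0.048 to 0.22 and Mt4 from -0.099 to 0.016. In the difference of the genotype differences 1 member was called higher and 2 lower without both arrays that stand apart, and 0 to 1 and 0 to 2 with 1 array left out. All probes called there, 2, were 18 and 20 (quantile over 12 arrays and within sets), 1 (unmoderated), 82 (array weights), 21 (filter on variability) and 402 (without both arrays), and 1 to 289 with 1 array left out. Members above the median on every AOM/DSS array, 1, were 2 without both arrays and 1 to 2 with 1 left out.

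The replicate numbers were not taken to pair the samples. Same-numbered arrays of the 2 genotypes correlated at -0.04 to 0.03 in AOM/DSS and at 0.09 to 0.40 in water. Differently numbered arrays correlated at -0.02 to 0.05 in AOM/DSS and at -0.38 to 0.18 in water. In water, arrays that share a number were thus mostly the more alike. The exception was TSP-1-/- replicate 1, which correlated more with WT replicate 2 (0.18) than with WT replicate 1. With the replicate number as a block no member's call changed, the AOM/DSS calls were 803, and the calls in the difference of differences were 1.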
